A study of Homo sapiens with 6 samples.

Results

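The genes described here are 45 genes that hepatocytes are known for: secreted plasma proteins, clotting factors, apolipoproteins, hepatocyte surface receptors and enzymes of nitrogen, amino acid and drug metabolism. They were taken as a fixed list of symbols, each of which matched 1 row of the deposited table, out of 57500 genes measured. Poly(A) RNA was sequenced from 22Rv1 cells, a human prostate carcinoma line in long use, with 3 libraries from each of 2 groups; a further condition that the design text counts is not analysed here. The parental group is labelled as control and wild type. The other group, called liver-derived here, is labelled as derived from a liver metastasis, and both grew in RPMI-1640 with fetal bovine serum. The labels name no added treatment. They give neither the host, the number of separate derivations, nor the way in which the cells were recovered, so an effect of the liver site and of a derivation or clone cannot be told apart. The extraction protocol speaks of tissue, whereas every sample is labelled as a cell line. The replicates are called biological without naming separate cultures, so the p-values measure the spread between these libraries, which may be technical.

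Hepatocytes make most of the proteins of blood plasma. Their secretory and metabolic genes are switched on together by a set of liver-enriched transcription factors, among them HNF4A, the C/EBP proteins and the FOXA proteins, and a hepatocyte therefore transcribes albumin, transthyretin, fibrinogen and the major apolipoproteins at the same time and at high levels. Some of these factors and some of their target genes are also transcribed in other epithelia, in the gut and in carcinomas. In bulk RNA, fewer cells of a type and less RNA per cell cannot be told apart.

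Promoter sequences of 4 of the genes are shown because they hold the same short motif while their RNA levels lay far apart. ALB and AFP, the genes of adult and of fetal albumin, are neighbours on chromosome 4, and FGA and FGB, the genes of fibrinogen chains, lie together further along the same chromosome. The stretch of 250 bases upstream of each RefSeq start (GRCh38.p14) is given 5′ to 3′ on the gene's strand: ALB at chr4:73404037-73404286 on the plus strand, AFP at chr4:73435971-73436220 (plus), FGA at chr4:154590743-154590992 (minus) and FGB at chr4:154562730-154562979 (plus). Capitals mark each match, on either strand, to 2 motifs. The first is TTGCNNAA, a core of C/EBP sites. The other is the TATA box, TATAAA. A FOXA motif, TGTTTAC, was also searched, and so was an HNF4 motif, CAAAGTCC; neither is in these 4 stretches.
ALB: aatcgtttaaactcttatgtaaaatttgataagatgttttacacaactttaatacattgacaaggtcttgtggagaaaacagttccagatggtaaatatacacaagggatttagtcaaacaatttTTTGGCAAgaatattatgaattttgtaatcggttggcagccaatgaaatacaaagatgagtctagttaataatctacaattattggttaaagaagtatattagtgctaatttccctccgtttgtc
AFP: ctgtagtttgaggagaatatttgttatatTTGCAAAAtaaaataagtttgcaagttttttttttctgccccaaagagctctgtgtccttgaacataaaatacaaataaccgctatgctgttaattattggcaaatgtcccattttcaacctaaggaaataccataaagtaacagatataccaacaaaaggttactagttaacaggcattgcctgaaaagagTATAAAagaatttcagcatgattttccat
FGA: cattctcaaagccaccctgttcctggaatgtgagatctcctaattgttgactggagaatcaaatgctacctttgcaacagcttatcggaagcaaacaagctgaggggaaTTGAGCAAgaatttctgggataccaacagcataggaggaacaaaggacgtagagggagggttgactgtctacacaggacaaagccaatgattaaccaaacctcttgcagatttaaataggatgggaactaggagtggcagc
FGB: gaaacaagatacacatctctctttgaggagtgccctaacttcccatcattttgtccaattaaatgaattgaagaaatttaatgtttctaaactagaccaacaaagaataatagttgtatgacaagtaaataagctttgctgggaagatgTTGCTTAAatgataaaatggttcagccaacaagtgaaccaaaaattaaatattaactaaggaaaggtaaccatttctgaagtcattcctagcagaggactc
All 4 stretches hold TTGCNNAA, and no match overlapped another. Promoters were found for 33 of the 45 genes, in windows from 250 bases before to 50 bases after each RefSeq start. TTGCNNAA was in a window of 11 of these 33 genes (33.3%), against 12.7% of 27305 genes with a promoter in the table, and the TATA box in 6 (18.2%, against 14%). The FOXA and HNF4 motifs were in 2 each (6.06%, against 4.19% and 1.47%). Such matches are descriptions of the letters only. TPM, the unit of the deposited table, is a level scaled for gene length and library depth. ALB stood at 41.5 to 70.3 TPM, AFP at 0.0216 to 0.398 TPM and FGB at 0 to 0.14 TPM, and FGA had 0 counts in all 6 libraries.

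Library totals ranged from 28395265 to 53275252 counts. Parental replicate 2 differed from the other parental libraries, with chi-square values of 55.3 and 61.8 per degree of freedom, against 2.24 between parental replicates 1 and 3 and 2.45 to 3.15 among the liver-derived libraries. Among the 16 liver genes with a group mean of at least 1 TPM, this library lay farther from the mean of replicates 1 and 3 than these lay from each other in 11, and the median coefficient of variation was 20.9% in the parental and 10.5% in the liver-derived group. As a check of the labelled cell type, all 12 genes of a prostate epithelial list (KRT8, KRT18, HOXB13 and others) were at 1 TPM or more in a group. Their summed level was 3075 to 3120 TPM in parental cells and 2718 to 2763 TPM in liver-derived cells. Of the 12, 3 rose and 6 fell, with the largest falls in KLK2 (log2 fold change -3.18), TMPRSS2 (-2.58) and KLK3 (-2.53). Over all genes tested, 17.5% were called higher and 21.3% lower, at the threshold given below.

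Most of the liver genes were barely transcribed in either group. Of the 45 genes, 29 stayed under 1 TPM in every library of both groups, and 7 reached a group mean of 10 TPM: ALB, F12, TFR2, APOC1, PROS1, AMBP and APOE. Summed over all 45 genes, the level was 213 to 221 TPM in parental cells and 193 to 195 TPM in liver-derived cells. The liver-derived sums were lower and did not overlap the parental ones, with a ratio of group means of 0.892. ALB alone made up 18.8 to 26.1% of the parental sum and 34.7 to 36.0% of the liver-derived sum. Without ALB, the sums were 157 to 180 and 125 to 126 TPM, a ratio of 0.756. Few genes carried that fall. By group mean, the largest drops were in TFR2 (23.4 to 8.53 TPM), F12 (50.8 to 38.5), PROS1 (19.0 to 9.53) and APOC1 (24.3 to 15.3). The change of F12 did not pass the test given below. AMBP (14.3 to 18.7 TPM) and F5 (0.716 to 3.83) rose the most.

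**Figure D1:**
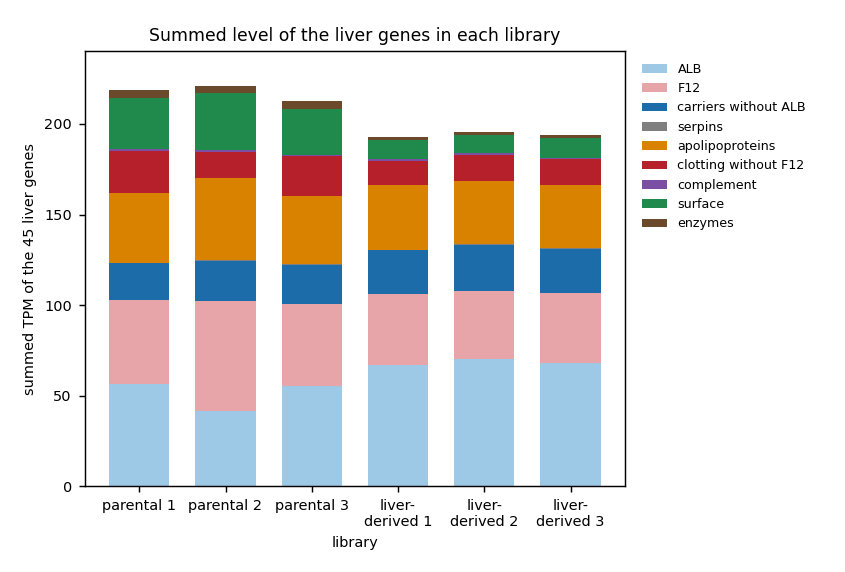
Summed TPM of the 45 liver genes in each of the 6 libraries (bars from 0, stacked by ALB, F12 and the other genes of each role). The ALB segment is taller in the liver-derived libraries, while the surface and clotting segments are shorter and the whole bar falls from 213 to 221 to 193 to 195 TPM.

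The filter on low counts kept 23 of the 45 genes for testing, and the other 22 never exceeded 18 counts in any library. Of the 23 tested, 7 rose (ALB, AFP, AMBP, APOA1, APOH, F5 and ARG1), 7 fell (RBP4, APOC1, PROS1, ASGR1, TFR2, FGFR4 and CPS1) and 9 did not pass. The threshold was an adjusted p under 0.05 in edgeR's quasi-likelihood test, with Benjamini-Hochberg adjustment over 19255 genes. Across all genes tested, 17.5% were called higher and 21.3% lower, 38.8% in all. A change of at least 2-fold was called in 9 of the 23, against 13.8% of all genes tested. The groups did not overlap in 15 of the 23, against 54.0% of all genes tested. The median log2 fold change was 0.13 over the 23 genes and -0.0075 over all genes. These shares describe only the genes that passed the filter, to which a gene high in 1 group alone could be admitted by that group. AFP, ARG1, RBP4 and ASGR1, with at most 9 counts in each library of 1 group, are among such genes. Without parental replicate 2, which stood apart from the other parental libraries, 9 rose and 9 fell of 25 tested, but 59.8% of all genes were then called (28.8% higher and 31.0% lower).

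**Figure D2:**
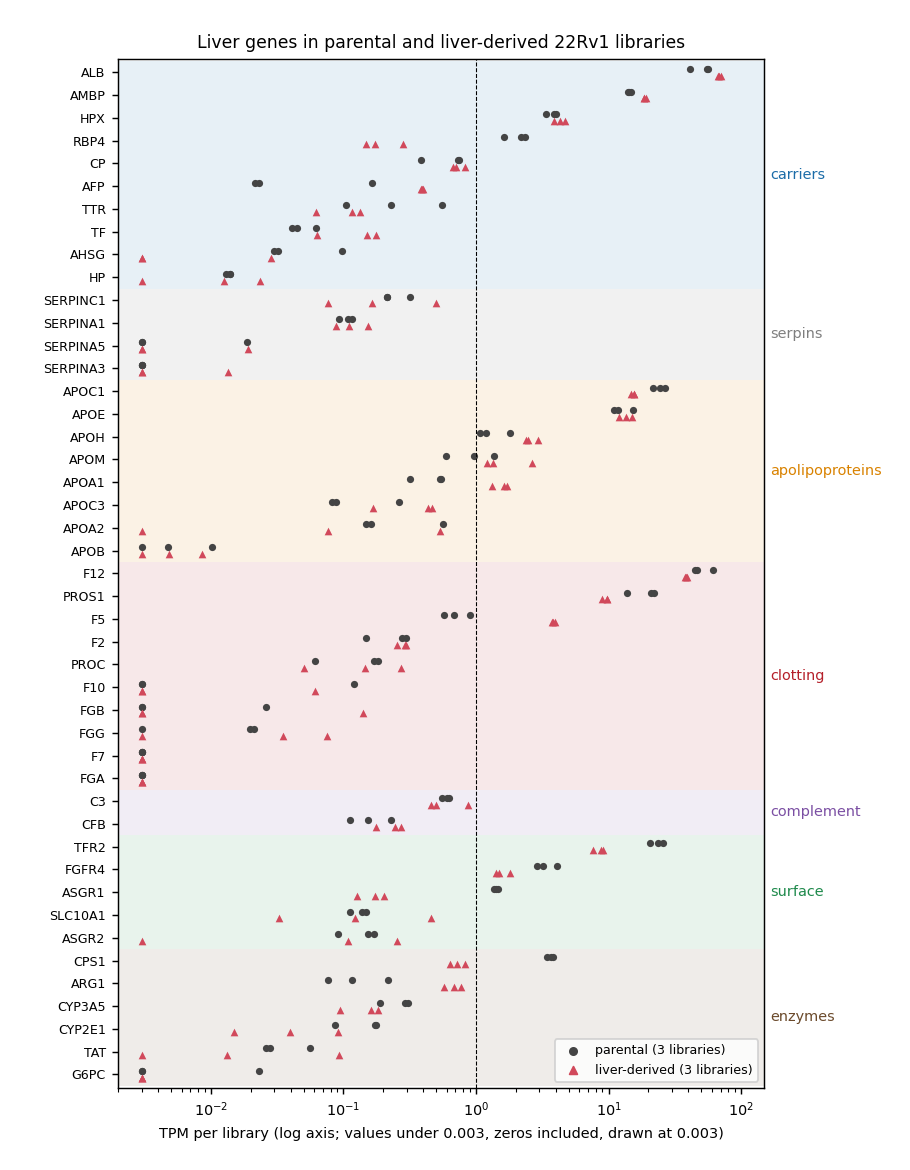
TPM of each of the 45 liver genes in each library (log axis, grouped by role; circles are the 3 parental and triangles the 3 liver-derived libraries; the dashed line is 1 TPM). For 29 genes every point lies left of 1 TPM, and ALB and F12 lie farthest to the right in both groups.

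Among carrier proteins of the plasma, albumin itself was already transcribed in the parental cells. ALB (ENSG00000163631; chromosome 4, 73397114 to 73421412, GRCh38, plus strand), the gene of the most abundant plasma protein, stood at 56.7, 41.5 and 55.5 TPM in parental replicates 1 to 3 and at 67.0, 70.3 and 67.9 TPM in the liver-derived replicates. All 3 liver-derived libraries lay above the parental ones, and parental replicate 2 was the lowest. On the CPM scale (counts scaled by TMM-adjusted library size) the means were 47.7 ± 6.06 and 65.8 ± 1.61 (SD, n = 3 each). ALB was thus 1.38-fold higher (log2 fold change 0.46, SE 0.098, edgeR adjusted p = 0.00538). The rise was 0.36 without parental replicate 2. AFP, the fetal albumin gene, starts 9.7 kb beyond the end of ALB and held 7, 1 and 1 counts in the parental and 19, 10 and 18 in the liver-derived libraries. The groups did not overlap, and AFP rose by a log2 fold change of 2.52 (SE 0.58, edgeR adjusted p = 0.00795) to 0.392 TPM, where ALB stood at 68.4 TPM. Without parental replicate 1, which held 7 of its 9 parental counts, the AFP change was 3.98.

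Other carriers moved apart from one another. AMBP, which encodes the precursor of alpha-1-microglobulin and bikunin, stood at 13.9, 14.8 and 14.2 TPM in the parental and 18.4, 19.3 and 18.4 TPM in the liver-derived libraries. The groups did not overlap, and the log2 fold change was 0.42 (SE 0.089, edgeR adjusted p = 0.00473). RBP4, the plasma carrier of retinol, moved the other way, from 1.62, 2.35 and 2.19 TPM to 0.279, 0.174 and 0.149 TPM. RBP4 fell 9.44-fold (log2 fold change -3.24, SE 0.36, edgeR adjusted p = 1.31e-04), with no overlap. TTR, transthyretin, circulates bound to the RBP4 protein and held 3, 16 and 7 counts in the parental and 2, 2 and 4 in the liver-derived libraries, under the filter. HPX, the heme carrier hemopexin, stood at 3.77 and 4.29 TPM (log2 fold change 0.22, adjusted p = 0.198), and CP, the copper protein ceruloplasmin, at 0.619 and 0.738 TPM (0.31, adjusted p = 0.328). Neither passed, and the CP difference was 0.095 without parental replicate 2. CP shares 19.4% of its exon bases with HPS3 on the opposite strand, which held 1178 to 2592 counts against 37 to 90 for CP, so reads could be split between them. TF (transferrin) held 5 to 7 parental and 8 to 18 liver-derived counts, AHSG (fetuin-A) 1 to 3 and 0 to 1, and HP (haptoglobin, a major acute-phase protein) 1 and 0 to 1. TF was not tested with the standard filter. It was called higher by edgeR with no filter (log2 fold change 1.36, adjusted p = 0.0493), without parental replicate 2 (1.59, 0.0235) and without liver-derived replicate 1 (1.75, 0.0189).

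The 4 serine protease inhibitor genes were close to silent in both groups. SERPINA1, which encodes alpha-1-antitrypsin and is among the most abundant hepatocyte transcripts, held 6 to 8 counts in both groups. SERPINC1 (antithrombin) held 5 to 8 and 2 to 7 counts. SERPINA5 held 1 count in 2 of the 6 libraries and SERPINA3, an acute-phase inhibitor, 1 count in 1. SERPINA3 shares 31.7% of its exon bases with AL049839.2 on the same strand, which held 0 counts in all libraries, so the SERPINA3 level is uncertain. The filter removed all 4 genes, and in the edgeR fit without a filter none of them was called.

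Apolipoprotein genes included members from both ends of the range. APOA1, the main protein of high-density lipoprotein, held 6, 10 and 11 counts in the parental and 36, 15 and 32 in the liver-derived libraries, or 0.320, 0.532 and 0.545 against 1.70, 1.33 and 1.62 TPM. Every liver-derived library was above every parental one (log2 fold change 1.78, SE 0.31, edgeR adjusted p = 0.00167). APOC3, an inhibitor of triglyceride clearance, lies 2.7 kb from APOA1 and held 1 to 3 and 2 to 6 counts, under the filter. APOH, which encodes beta-2-glycoprotein I, rose from 1.20, 1.08 and 1.80 TPM to 2.93, 2.46 and 2.38 TPM (log2 fold change 0.97, SE 0.24, edgeR adjusted p = 0.0115). That call was lost without liver-derived replicate 1 (adjusted p = 0.0577, the highest over its 12 alternatives, the lowest being 0.00384).

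The pair of chromosome 19 apolipoprotein genes, 4.9 kb apart, did not move alike. APOC1, a small protein of triglyceride-rich particles, fell from 24.6, 26.8 and 21.6 TPM to 15.7, 15.7 and 14.7 TPM, without overlap (log2 fold change -0.63, SE 0.12, edgeR adjusted p = 0.00324). Its copy APOC1P1 held at most 4 counts. APOC1 shares 43.2% of its exon bases with AC011481.3 on the same strand, which held 1 to 7 counts. How reads in shared bases were counted is not stated. APOE, a ligand of lipoprotein receptors that many cell types outside the liver make, stood at 11, 15.4 and 11.8 TPM in the parental and 13.6, 11.9 and 15.1 TPM in the liver-derived libraries. The groups overlapped (0.13, SE 0.16, adjusted p = 0.576). Without parental replicate 2, APOE passed as higher (0.34, adjusted p = 0.00248; its adjusted p ran up to 0.962 over 13 alternatives). The difference between the changes of APOC1 and APOE was not tested. APOM, a carrier of sphingosine-1-phosphate, did not pass (0.80, SE 0.38, adjusted p = 0.130), with 2.66 TPM in liver-derived replicate 2 and 0.593 to 1.36 TPM in the other libraries. APOM was called higher in 1 of 12 alternatives, the fit without a filter (0.79, adjusted p = 0.0479; up to 0.371 over the others), and its difference was 0.45 without liver-derived replicate 2. It overlaps BAG6 on the opposite strand, which held 12964 to 24174 counts. APOA2 held 0 to 7 counts and APOB, the structural protein of low-density lipoprotein and one of the largest hepatocyte products, 0 to 2.

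Clotting genes were led by F12, PROS1 and F5, each with its own pattern. F5, the cofactor that speeds thrombin formation, stood at 0.901, 0.677 and 0.571 TPM in the parental and 3.94, 3.77 and 3.79 TPM in the liver-derived libraries. The groups were far apart, and F5 was 5.51-fold higher (log2 fold change 2.46, SE 0.15, edgeR adjusted p = 3.30e-06). PROS1, the gene of the anticoagulant protein S, which other tissues also make, fell from 22.2, 13.8 and 20.9 TPM to 8.98, 9.82 and 9.79 TPM. Its groups did not overlap (-0.95, SE 0.15, edgeR adjusted p = 8.98e-04), and its pseudogene PROS2P held at most 1 count. F12, the contact-pathway factor, had the highest group means after ALB and stood above ALB in parental replicate 2, with 46.3, 60.9 and 45.2 TPM in the parental and 39.3, 37.6 and 38.6 TPM in the liver-derived libraries. All 3 liver-derived values lay below the parental ones, but the change did not pass (-0.37, SE 0.14, adjusted p = 0.0644). F12 passed as lower in 6 of 13 alternatives, with adjusted p from 0.00135 to 0.182, and the change was -0.17 without parental replicate 2. It shares 14.4% of its exon bases with GRK6 on the opposite strand, which held 3286 to 6510 counts.

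The remaining clotting genes, which are among the most liver-restricted, were at or near 0. FGA and F7 had 0 counts in all 6 libraries. With 144045598 parental and 131192985 liver-derived counts, 0 counts allow a level of up to 0.0208 and 0.0229 CPM over each group (3 counts, counting error only). FGB held 0 to 3 counts, FGG 0 to 4, F10 0 to 4, PROC (protein C) 1 to 10 and F2 (prothrombin) 5 to 11. The parental and liver-derived ranges of each of these overlapped. The complement genes C3 and CFB were tested and did not pass. C3, the central complement protein, stood at 0.594 and 0.613 TPM (log2 fold change 0.03, adjusted p = 0.933), and CFB, a protease of the alternative pathway, at 0.164 and 0.230 TPM (0.57, adjusted p = 0.268).

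All 3 tested surface receptor genes fell, where 21.3% of all genes tested were called lower. ASGR1, a subunit of the asialoglycoprotein receptor through which hepatocytes clear glycoproteins, fell from 1.38, 1.41 and 1.47 TPM to 0.126, 0.202 and 0.173 TPM. In counts this was 68, 70 and 78 against 7, 6 and 9, and ASGR1 was 8.45-fold lower (log2 fold change -3.08, SE 0.24, edgeR adjusted p = 1.16e-05). Its partner subunit ASGR2 lies 57.7 kb away and held 3 to 6 parental and 0 to 5 liver-derived counts. TFR2, a sensor of iron-loaded transferrin in hepatocytes and in red cell precursors, fell from 23.7, 25.9 and 20.6 TPM to 9.07, 7.69 and 8.84 TPM (-1.41, SE 0.12, edgeR adjusted p = 2.92e-05). FGFR4, the receptor that carries the FGF19 signal to the hepatocyte, fell from 3.21, 4.06 and 2.86 TPM to 1.42, 1.80 and 1.49 TPM (-1.09, SE 0.18, edgeR adjusted p = 0.00153). For all 3 genes the highest liver-derived library lay below the lowest parental one, while the groups did not overlap in 54.0% of all genes tested. SLC10A1, the bile acid uptake transporter of hepatocytes, held 3, 4 and 4 counts in the parental and 1, 2 and 13 in the liver-derived libraries and was not tested.

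**Figure D3:**
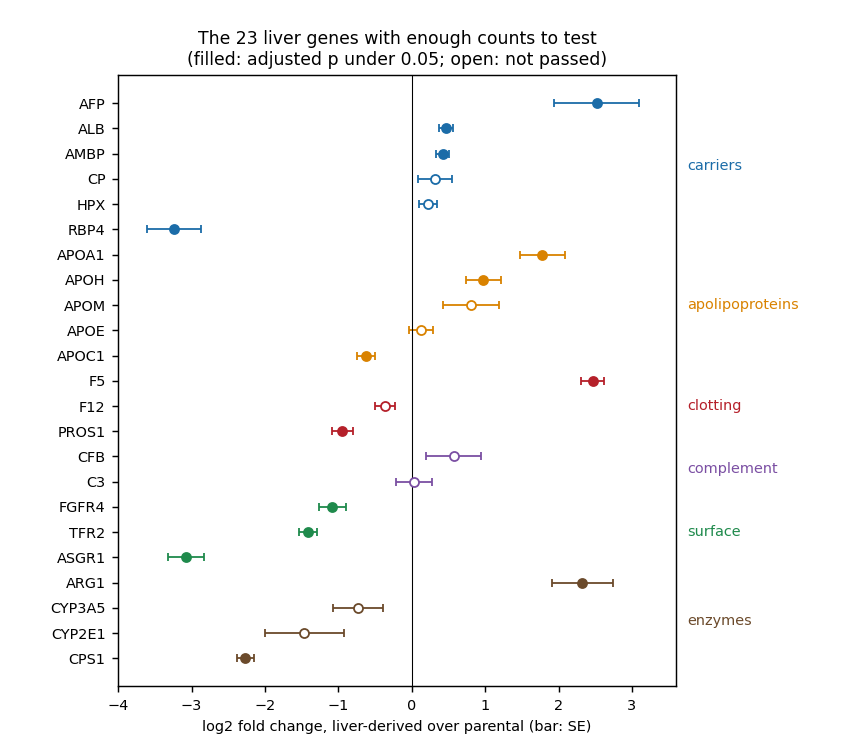
Fitted log2 fold change, liver-derived over parental, for the 23 liver genes tested, grouped by role (points are edgeR estimates, bars their SE; filled points passed an adjusted p under 0.05, open points did not). The 3 surface receptor genes tested lie left of 0, whereas carriers, apolipoproteins, clotting genes and enzymes each hold changes on both sides. Of all genes tested, 21.3% were called lower.

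Enzyme genes of the urea cycle changed in opposite directions. CPS1, the mitochondrial enzyme that starts the urea cycle, fell from 3.70, 3.42 and 3.83 TPM to 0.832, 0.724 and 0.641 TPM. The groups were well separated, and CPS1 was 4.82-fold lower (log2 fold change -2.27, SE 0.11, edgeR adjusted p = 8.69e-07). ARG1, the cytosolic arginase that ends the cycle, held 3, 2 and 6 counts in the parental and 20, 9 and 21 in the liver-derived libraries. ARG1 rose by a log2 fold change of 2.32 (SE 0.42, edgeR adjusted p = 0.00206) and reached 0.678 TPM, still under 1 TPM. CYP3A5 and CYP2E1, cytochrome P450 enzymes of drug and ethanol metabolism, were lower without passing (-0.74, adjusted p = 0.120, and -1.46, adjusted p = 0.0610). CYP2E1 held 22, 11 and 24 against 13, 3 and 2 counts, overlaps SYCE1 on the opposite strand over 23% of its exon bases, and was called lower in 4 of 12 alternatives (adjusted p from 0.00481 to 0.185). With the replicate number as a block its adjusted p was 0.0355. TAT (tyrosine aminotransferase) held 0 to 4 counts, and G6PC, the glucose-releasing phosphatase of the liver, 1 count in 1 parental library.

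Most defining hepatocyte markers were low in the libraries of both groups, unlike ALB. Of 22 members taken as defining markers, 15 were under 1 TPM in every library. The 22 were picked by hand from the 45. They leave out RBP4, APOC1, PROS1, TFR2 and FGFR4, which fell, and AFP and F5, which rose. Without ALB the other 21 summed to 25.4 to 27.7 TPM in parental and 29.8 to 31.5 TPM in liver-derived cells. The group means of that sum were 26.8 and 30.4 TPM, of which AMBP alone held 14.3 and 18.7 TPM. HPX came next by group mean (3.77 and 4.29 TPM), close to CPS1 in parental cells (3.65 TPM). The sum of all 45 genes without ALB moved the other way, from 157 to 180 TPM to 125 to 126 TPM. Of the 22, 9 passed the filter on low counts. ALB, AMBP, APOA1, APOH and ARG1 rose, ASGR1 and CPS1 fell, and HPX and CYP2E1 did not pass the test. ARG1, with 2 to 6 parental counts, and ASGR1, with 6 to 9 liver-derived counts, could pass the filter through the other group alone. These calls describe only the 9 genes that passed it. Among all genes tested, 17.5% were called higher and 21.3% lower. The other 13 of the 22, among them TTR, APOA2, FGA, FGB and FGG, held 0 to 16 counts in any library. Most markers of other liver cells were also low. Of 29 genes of Kupffer, endothelial, stellate and red cells, 22 were under 1 TPM in every library. Of 14 tested, 1 rose, 4 fell and 9 did not pass, against 17.5% higher and 21.3% lower among all genes tested. RELN, a stellate cell marker, rose (log2 fold change 3.27), and the largest falls were in LUM (-4.93) and HBA1 (-1.97). The other stellate cell genes listed did not rise with RELN. LUM and COL3A1 (-1.13) fell, and LRAT (0.04), COL1A1 (0.06), COL1A2 (0.30), DES (0.65) and ACTA2 (-0.21) did not pass. PDGFRB and DCN were not tested. HBA1 stood at 20.5 TPM in parental and 5.16 TPM in liver-derived cells, or 213 to 255 and 39 to 59 counts. It has a near-identical copy, HBA2, with 786 to 868 parental and 108 to 189 liver-derived counts. Counts of both were lower in the liver-derived libraries, while the split of reads between them is uncertain. The part of other cells in the values of the 45 genes was otherwise not tested. Among markers of blood-derived and endothelial cells, PTPRC held 39 to 61 counts, PECAM1 14 to 29, STAB2 6 to 24 and CD68 7 to 14. C1QB, C1QC and CDH5 held 0 in all libraries. CD68 shares 81.7% of its exon bases with AC016876.2 on the same strand, which held 91 to 177 counts, so the CD68 count is uncertain.

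Transcription factors of the hepatocyte programme were present in part. HNF4A, the nuclear receptor at the centre of the hepatocyte network, held 8 to 12 parental and 6 to 17 liver-derived counts (0.0983 and 0.129 TPM; log2 fold change 0.47, edgeR adjusted p = 0.342). HNF4G, the paralog of HNF4A, stood at 16.4 and 12.3 TPM and was called lower (log2 fold change -0.38, edgeR adjusted p = 0.0438). HNF4G was named after its values were seen. FOXA2 held 1 to 8 counts and was not tested. Its relative FOXA1, a prostate pioneer factor as well, stood at 374 and 332 TPM (-0.13, edgeR adjusted p = 0.117). CEBPA fell from 19.8 to 14.7 TPM (-0.39, adjusted p = 0.0262), a call lost without liver-derived replicate 1 (adjusted p = 0.112) or 2 (0.103), while it was as low as 0.00167 over the 13 alternatives. The other C/EBP genes listed stood higher and moved the other way. CEBPB rose from 125, 121 and 112 TPM to 172, 196 and 221 TPM (log2 fold change 0.75, SE 0.11, edgeR adjusted p = 5.57e-04), and CEBPD rose from 61.9 to 85.3 TPM (0.50, adjusted p = 0.0025); both were named after their values were seen. FOXA3 fell from 2.87, 3.56 and 2.44 TPM to 0.523, 0.345 and 0.427 TPM (-2.68, adjusted p = 5.97e-05). NR5A2, a nuclear receptor of bile acid synthesis and of endodermal tissues, rose from 0.512, 0.681 and 0.765 TPM to 4.20, 3.77 and 3.74 TPM (2.62, adjusted p = 1.91e-06). Of 19 factors tested of 25 listed, 5 rose, 6 fell and 8 did not pass. Among all genes tested, 17.5% were called higher and 21.3% lower.

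**Figure D4:**
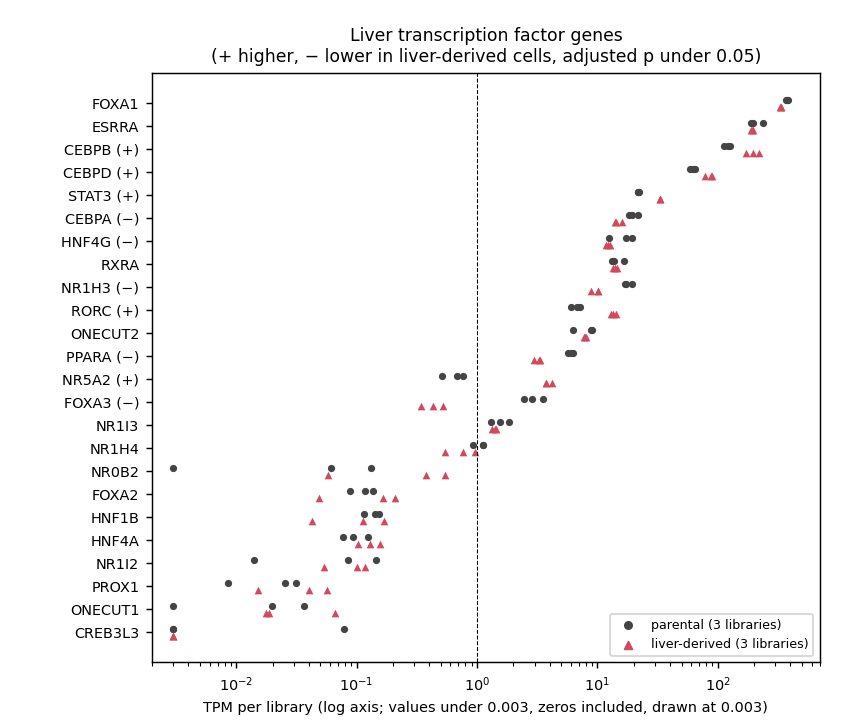
TPM of 24 liver transcription factor genes in each library (log axis; circles parental, triangles liver-derived, 3 libraries each; the dashed line is 1 TPM). CEBPA and FOXA1 lie right of the line in all libraries, HNF4A and FOXA2 lie well left of it, and NR5A2 crosses the line in the liver-derived libraries.

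Liver genes outside the 45, from lists written for comparison, also moved both ways. Of 49 further plasma protein genes, 11 passed the filter, and 4 rose, 1 fell and 6 did not pass, against 17.5% higher and 21.3% lower among all genes tested. The 4 that rose became 2 with library size alone, the filter of 1 CPM, the replicate block or DESeq2. They also became 2 without parental replicate 1 or 3 or liver-derived replicate 1 or 3. APOA5, a plasma regulator of triglyceride breakdown from the same chromosome 11 cluster as APOA1, rose from 0.979, 0.625 and 0.691 TPM to 10.2, 8.84 and 10.3 TPM (log2 fold change 3.72, SE 0.17, edgeR adjusted p = 5.38e-07). APOA4 from that cluster held 0 counts in the parental libraries and 3 in all in the liver-derived ones. HABP2 rose (1.46), and the complement gene C5 fell (-0.52). Of 47 further hepatocyte enzymes and transporters, 18 passed the filter, and 10 rose, 5 fell and 3 did not pass. The shares over all genes tested were again 17.5% higher and 21.3% lower. The 5 that fell became 2 when liver-derived replicate 1 was left out, and 3 with the filter of 1 CPM or when either parental replicate 1 or liver-derived replicate 2 was left out. CYP2C8, a drug-metabolising cytochrome, rose from 1.80, 1.38 and 1.86 TPM to 13.2, 13.4 and 13.4 TPM (3.03, SE 0.12, edgeR adjusted p = 1.46e-07), while its paralogs CYP2C18 and CYP2C19 held at most 6 counts. HGD, of tyrosine breakdown, fell (-1.43). Of the urea cycle genes around CPS1 and ARG1, ASS1 and ASL rose (0.71 and 0.38; both named after their values were seen), NAGS did not pass (-0.22, adjusted p = 0.156) and OTC had 0 counts in all libraries.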

How the data were processed

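The comparison covers 3 parental and 3 liver-derived libraries, assigned from the sample titles. What the authors deposited are unnormalised gene counts, a file for each library, and 1 TPM table. Reads had been processed with Trimmomatic 0.36, STAR 2.5.2b and featureCounts of Subread 1.5.2 on GRCh38, per the submitters' processing notes; the sources used here give no strand setting or annotation release, so reads of genes that overlap on opposite strands cannot be told apart. TPM recomputed from the counts and gene lengths differed from the deposited TPM by at most 4.8e-05 in relative terms; 391182 lines without a gene were dropped from that table. In 1 TPM column these lines held a spreadsheet error, so its unit was recorded as other.

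Counts were fitted with edgeR 4.0.16 (R 4.3.3; filterByExpr, TMM, robust quasi-likelihood, group as the only term) over 19255 genes, liver-derived minus parental. CPM are TMM-normalised, the SE is the fitted log2 fold change divided by the square root of F, and TPM served for levels without a test. Alternatives were RLE, upper-quartile or no scaling factors, 2 other filters, DESeq2 1.42.0, a replicate block and each library left out. The fitting step was tested on simulated counts. No 2 libraries agreed within sampling noise. The count totals exceed the number of read pairs that the labels give, and whether mates were counted separately is not stated.

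The members and lists were chosen with earlier results of these data known. Named beside the 45 members were, from each comparison list, the 3 genes past the threshold with the largest changes and a group mean of at least 1 CPM, and HNF4A, CEBPA and FOXA2, except that some of the genes so chosen are not reported here; other genes were named after their values were seen. Promoter sequences are from RefSeq (GRCh38.p14).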

Additional observations from a re-analysis of the deposited data

How the results depend on the processing

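Of 14 liver genes called, 13 kept their direction and call in every alternative in which they were tested; the exception was APOH. The replicate numbers did not pair the libraries (correlations of deviations -0.0446, -0.0197 and 0.0805), and with the replicate block 7052 genes were called, 7 liver genes higher and 8 lower. A filter of 1 CPM in 3 libraries left 14 liver genes to test, 3 of them higher and 6 lower, where 20.5% and 23.0% of all genes were called higher and lower. Leaving out 1 library at a time gave 5600 to 11870 calls over all genes (2432 to 5714 higher, 3168 to 6156 lower), the highest without parental replicate 2. Library size alone lowered the share of higher calls over all genes from 45.1 to 37.6%. The difference of C3 changed sign with library size alone (-0.0214) and ran from -0.2465 (without liver-derived replicate 2) to 0.2116 without 1 library. Among genes that did not pass, leaving out 1 library moved HPX between 0.13 and 0.30, CFB between 0.33 and 0.91 and CYP2E1 between -2.49 and -0.98. Of the further plasma proteins, 2 were higher with library size alone, the 1 CPM filter, the block or DESeq2, 2 to 3 without 1 library; 3 were lower without a filter, and 1 to 2 without 1 library. Of the further enzymes, 3 were lower with the 1 CPM filter and 2 to 4 without 1 library. The summed TPM ratio was 0.756 without ALB. The cause of these shifts was not tested, except that the stricter filter tests fewer genes. Genes under 10 counts per library are limited by depth.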
